A study of Triticum aestivum with 16 samples.

Results

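Fructans are the main storage carbohydrate of temperate grasses such as wheat. They are chains of fructose built on sucrose in the vacuole by a family of fructosyltransferases. Sucrose:sucrose 1-fructosyltransferase (1-SST) makes the first trisaccharide, 1-kestose, sucrose:fructan 6-fructosyltransferase (6-SFT) adds fructose in the branched form that prevails in wheat, and fructan:fructan 1-fructosyltransferase (1-FFT) lengthens the chains. Fructan exohydrolases (FEH) take the chains apart again. In flag leaves, the topmost leaves and a main source of sugar for the grain, fructan is known to build up when sugar is made faster than it is exported.

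The fructosyltransferase loci LOC542773, LOC542774 and LOC780687 of bread wheat were followed across 8 recombinant inbred lines named SB15, SB33, SB53, SB80, SB138, SB146, SB165 and SB189. They comprise 3 of the 771 genes, and 5 of the 1273 probe sets, that the array annotation names. Another 2 probe sets share the cluster number of LOC542773 in their identifier but have no gene in the annotation, and no other probe set on the array, of 61290 in all, shares a cluster number with the 3 loci. The loci were chosen by the deposited log2 signals of these arrays, as genes whose levels differed widely between lines, so their levels over the lines are given as a description without a test. The annotation names these genes by locus number alone, beside sequence accessions from which no enzyme was read. That the loci belong to the fructosyltransferases is background knowledge, and which of the enzymes each encodes is not given in the sources used here.

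All lines come from crossing the cultivar Seri M82 with Babax, and each line is a fixed mixture of the genomes of both. They were grown in 2007 in 1 irrigated field, and flag leaves were taken 6 to 8 days after anthesis from 2 field replicates of each line, which gives 16 arrays. No line was treated, none serves as a control, and the labels give no sugar content for any of them. The labels call the replicates biological, so the spread between them includes field and sampling differences, and 2 arrays per line limit the precision. Values are log2 signals as deposited, with a floor at 2.25, and the negative controls averaged 2.26. A difference of 1 on this scale is a doubling of signal, and since each probe set has its own efficiency, levels are compared between lines within a probe set and never between probe sets. In bulk leaf RNA, fewer cells of a type and less RNA per cell cannot be told apart.

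The arrays carried the signals of a leaf. The 5 annotated leaf genes (rbcL, PRK, petC, PsbO and PsbP, all of photosynthesis) lay between 14.83 and 16.57 on their brightest probe sets. Of 8 grain storage protein genes, 7 lay within 1 of the floor. The exception was LOC100125692, with the synonym ALP, whose probe set Ta.27777.1.S1_at averaged 11.56 with a range of 0.23 between lines (limma adjusted p = 0.872), while its other 3 probe sets lay within 1 of the floor. The mean level of the grain list lay between 2.81 and 2.83 in every line. Of 3 anther genes, both raftin genes lay within 1 of the floor and profilin (LOC543315) averaged 14.31 on its brighter probe set.

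In RefSeq's gene order for wheat (assembly IWGSC CS RefSeq v2.1), LOC542774 and LOC780687 are direct neighbours on 1 chromosome, with 0 annotated genes between them, and LOC542773 lies on a different chromosome. Positions are left out, since the sources used here name no build for the array's design.

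LOC542773 was bright, and on Ta.2789.1.S1_at, the brighter of its annotated probe sets, its signal exceeded that of 91.6% of probe sets. In SB80 the field replicates read 10.78 and 10.85, in SB189 10.09 and 11.44, and in SB33 10.94 and 10.52. SB138 followed with 9.71 and 10.34, SB53 with 9.58 and 9.42, and SB15 with 9.29 and 9.04. The lowest lines were SB165, at 8.71 and 8.19, and SB146, at 8.41 and 8.29. Every array of SB80, SB189 and SB33 except replicate 1 of SB189 thus lay above every array of the other lines, and that array lay below replicate 2 of SB138. The line means ranged from 8.35 ± 0.091 (SD, n = 2) in SB146 to 10.82 ± 0.048 in SB80, a range of 2.47 or 5.53-fold.

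The other annotated probe set of LOC542773, Ta.2789.1.S1_a_at, spread the lines further apart. It was highest in SB189 (10.65 and 11.59) and SB80 (10.68 and 11.15) and lowest in SB165 (8.31 and 7.5), a range of 3.21 or 9.28-fold. Its line means correlated with those of the first probe set at r = 0.967 over 8 lines. The suffix of this probe set marks probes that match several transcripts of a gene.

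The unnamed probe sets with the cluster number of LOC542773 followed its annotated ones. Ta.2789.2.S1_at read 12.88 and 13.48 in SB189, 12.76 and 13.03 in SB80, and 12.53 and 12.55 in SB33. In SB138 it read 11.85 and 12.51, in SB53 11.43 and 11.49, and in SB15 10.82 and 10.995. SB146, at 10.6 and 10.82, and SB165, at 10.84 and 10.36, were the lowest lines and overlapped each other and SB15. The range of its line means was 2.58 (5.98-fold), and that of Ta.2789.2.S1_x_at, whose suffix marks probes shared with other sequences, was 2.9 (7.44-fold). Both tracked Ta.2789.1.S1_a_at over the 8 line means, with r of 0.996 and 0.998, and placed the lines in the same order (rho = 1 for each). The replicates agreed more closely on them than on the annotated probe sets, with pooled SDs of 0.271 and 0.268 against 0.398 and 0.416.

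LOC542774 was measured by the single probe set Ta.2788.1.A1_at. It read 9.59 and 9.43 in SB189 and 9.67 and 9.27 in SB80, and both lines lay above all others. SB33 followed at 8.92 and 8.8, SB138 at 8.7 and 8.92, and SB53 at 8.62 and 8.36. The lowest were SB15, at 7.99 and 7.38, SB146, at 7.61 and 7.37, and SB165, at 7.92 and 6.71. The 10 arrays of the first 5 lines all lay above the 6 arrays of the last 3. Line means ran from 7.31 ± 0.85 (SD, n = 2) in SB165 to 9.51 ± 0.11 in SB189, a range of 2.19 or 4.58-fold. The replicates of SB165 differed by 1.2, the most among the 8 lines for this locus, and without replicate 1 of SB165 the range was 2.8.

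LOC780687 came close to the floor in several lines. On Ta.3475.1.A1_at it read 7.71 and 7.84 in SB189, 7.53 and 7.44 in SB80, and 6.65 and 6.78 in SB138. SB33 lay in between with replicates that differed, at 6.24 and 5.11. SB53 read 4.23 and 4.22, SB15 4.01 and 3.21, SB146 3.77 and 3.21, and SB165 4.36 and 2.53. All 8 arrays of SB189, SB80, SB138 and SB33 lay above the 8 arrays of the other lines. Line means ran from 3.45 ± 1.3 (SD, n = 2) in SB165 to 7.77 ± 0.094 in SB189, a range of 4.33 or 20.1-fold between the means. Without replicate 1 of SB165 the range was 5.24. In 3 arrays, the second replicates of SB15, SB146 and SB165, the signal lay within 1 of the floor, so the lowest levels are poorly measured and the fold is no exact value.

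The second probe set of LOC780687, Ta.3475.2.S1_at, showed signal in few arrays. It read 5.19 and 5.02 in SB189 and 5.0 and 2.95 in SB80, while 13 of the 16 arrays lay within 1 of the floor. Both probe sets placed SB189 and SB80 first, and their line means correlated at r = 0.84. The second replicate of SB80 was low on this probe set only: on Ta.3475.1.A1_at the replicates of SB80 differed by 0.098.

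**Figure D1:**
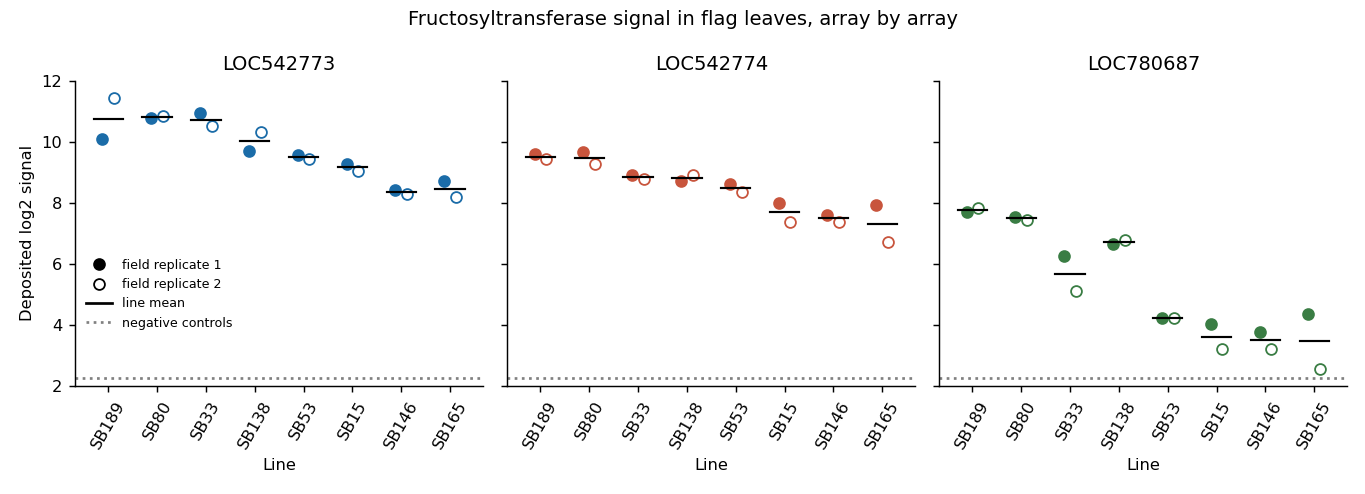
Deposited log2 signal of the brightest annotated probe set of each locus, with 1 panel per locus, lines on the x axis in the order of the LOC542774 means, filled points for field replicate 1, open points for replicate 2, bars for line means and a dotted line for the negative controls. SB189 and SB80 stand high and SB146 and SB165 low in each panel, and LOC780687 comes within 1 of the floor in 3 arrays.

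The loci ordered the lines almost alike. LOC542774 and Ta.2789.1.S1_a_at of LOC542773 gave the same order from first to last (rho = 1 over 8 line means): SB189, SB80, SB33, SB138, SB53, SB15, SB146 and SB165. On the brightest annotated probe sets, LOC542773 and LOC542774 correlated at r = 0.959, LOC542773 and LOC780687 at 0.898, and LOC542774 and LOC780687 at 0.949. These correlations are over 8 line means from the same 16 arrays and describe loci that were chosen for wide differences. Without SB80 and SB165 they were 0.932, 0.851 and 0.932.

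The order of the loci parted at SB138 and SB33, where LOC780687 on Ta.3475.1.A1_at placed SB138 higher and the other loci SB33. Its second probe set, near the floor in these lines, placed SB33 (2.81) above SB138 (2.69). LOC542773 on Ta.2789.1.S1_at also exchanged SB80 with SB189 and SB146 with SB165, pairs of lines whose replicates overlapped. Relative to its own mean over the lines, LOC780687 on Ta.3475.1.A1_at stood at 1.41 in SB138 and at 0.37 in SB33, while LOC542773 stood at 0.3 in SB138 and at 1.01 in SB33. LOC542774 gave 0.36 and 0.4 and hardly separated these lines. In SB53 LOC542774 lay at its mean, at 0.03, where LOC780687 lay at -1.08. These differences between loci were not tested, because the lines' levels had served to choose the loci.

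**Figure D2:**
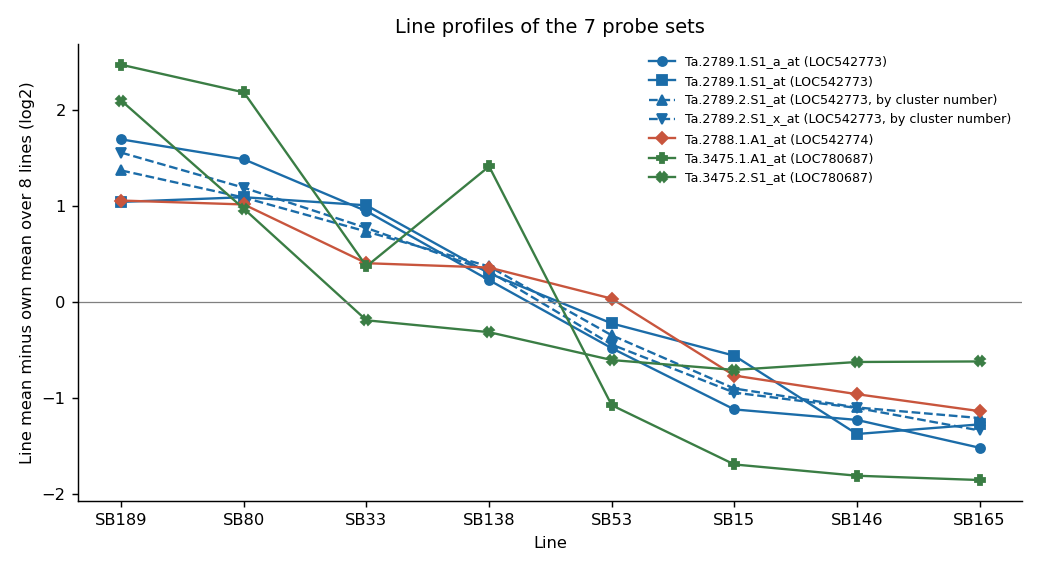
Mean of each line minus the probe set's own mean over the 8 lines (log2, y axis) for the 5 annotated probe sets (solid lines) and the 2 that share a cluster number (dashed lines), with lines on the x axis. The LOC542773 and LOC542774 profiles fall in nearly the same order, and Ta.3475.1.A1_at of LOC780687 peaks again at SB138 with 1.41.

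Neighbours in the order of line means were often not separated. A step was counted as separated where the replicates did not overlap and the gap exceeded the pooled SD between replicates. For LOC542773 on Ta.2789.1.S1_at, 3 of 7 steps were separated: SB33 from SB138, SB138 from SB53, and SB15 from SB165. SB80, SB189 and SB33 were not separated from one another there, nor was SB53 from SB15 or SB165 from SB146. For LOC542774 2 of 7 steps were separated, SB80 from SB33 and SB53 from SB15. For LOC780687 4 of 7 were separated, and SB189 was not separated from SB80, nor SB15 from SB146 or SB146 from SB165.

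Over all 28 pairs of lines, the replicates did not overlap in 23 pairs for LOC542773, 23 for LOC542774 and 24 for LOC780687 on these probe sets. Among the 30557 brightest probe sets of the array, 37.2% of such pairs did not overlap. Nothing is read from these counts, since such differences chose the loci.

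The field replicates gave a comparison that had no part in choosing the loci. It takes replicates 1 and 2 to mean the same in every line, which was not established, and other numbering would change its values. Between replicate 2 and replicate 1, none of the 7 probe sets passed (limma with line as a block, adjusted p of 0.847 to 1), in a test that called 0.0% of all probe sets. At an unadjusted p under 0.05 there was 1 of the 7, LOC542774, which differed by -0.35 (SE 0.144, limma adjusted p = 0.847) and was lower in replicate 2 in 7 of 8 lines. Over the whole array 2605 of 61115 probe sets had an unadjusted p under 0.05. LOC780687 on Ta.3475.1.A1_at differed by -0.52 (SE 0.242) and LOC542773 on Ta.2789.1.S1_at by 0.07 (SE 0.215). The probe sets Ta.2789.1.S1_a_at, Ta.2789.2.S1_at and Ta.2789.2.S1_x_at of LOC542773 were each higher in replicate 2 in 7 of 8 lines, by 0.26, 0.19 and 0.14 on average.

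Within lines, the question was whether lines with a larger difference between replicates 2 and 1 for 1 locus had a larger one for another. Whether the same sample of a line was higher for both is a different question, for which the direction is given apart. Here too the values depend on the numbering of the replicates. The difference between replicates 2 and 1 was taken in each line, which removes the level of the line, and correlated between loci over the 8 lines with an exact two-sided permutation test. On Ta.2789.1.S1_at and Ta.3475.1.A1_at, LOC542773 and LOC780687 gave r = 0.732 (exact permutation p = 0.0382, adjusted over 3 pairs 0.0574) and moved in the same direction in 7 of 8 lines. By rank their correlation was 0.929 (exact permutation p = 0.00223, adjusted 0.0067). Without SB138 and SB189, the lines farthest from the median for LOC542773, r was 0.904 over 6 lines (exact permutation p = 0.0181).

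LOC542774 and LOC780687 gave r = 0.76 (exact permutation p = 0.0276, adjusted 0.0574) and moved the same way in 7 of 8 lines, with a rank correlation of 0.524 (exact permutation p = 0.197, adjusted 0.197). This relation rests largely on SB165: r was 0.372 without SB165 alone (exact permutation p = 0.416), 0.715 without SB138 alone (exact permutation p = 0.0597), and 0.102 over 6 lines without both, the lines farthest from the median (exact permutation p = 0.838). LOC542773 and LOC542774 gave r = 0.539 (exact permutation p = 0.179, adjusted 0.179), a rank correlation of 0.524 (exact permutation p = 0.197, adjusted 0.197) and the same direction in 6 of 8 lines. Without SB138 and SB189 their r was 0.493 over 6 lines (exact permutation p = 0.321). None of the 3 Pearson correlations passed after adjustment. Of the 8 lines, SB165 had the lowest difference in each of the 3 loci, at -0.51 in LOC542773, -1.2 in LOC542774 and -1.83 in LOC780687.

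The outcome turned on the probe sets that stood for LOC780687 and LOC542773. With Ta.3475.2.S1_at for LOC780687, within 1 of the floor in 13 arrays, r was -0.0884 to -0.0301 with the probe sets of LOC542773. With LOC542774 it was 0.223. The bright unnamed Ta.2789.2.S1_at was also put in place of Ta.2789.1.S1_at for LOC542773, a choice made after seeing the data. Its r was 0.829 with LOC542774 (exact permutation p = 0.0196, adjusted 0.0276). With LOC780687 on Ta.3475.1.A1_at it was 0.867 (exact permutation p = 0.00389, adjusted 0.0117). The signs agreed less often: the replicate difference of Ta.2789.2.S1_at had the direction of LOC542774 in 2 of 8 lines and that of LOC780687 on Ta.3475.1.A1_at in 3 of 8, and the same counts held for Ta.2789.1.S1_a_at and Ta.2789.2.S1_x_at. On these 3 probe sets most lines were higher in replicate 2, and for LOC542774 and LOC780687 most were lower, so the correlation compares the order of the differences and not their direction. Replicate differences of this probe set and of Ta.2789.1.S1_a_at correlated at 0.959, and with Ta.2789.1.S1_at at 0.826. Any difference between whole arrays also enters these correlations. Over the 30557 brightest probe sets the replicates of a line correlated at 0.994 to 0.997. A shift of a whole array leaves that value unchanged, so the size of such differences cannot be read from it.

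**Figure D3:**
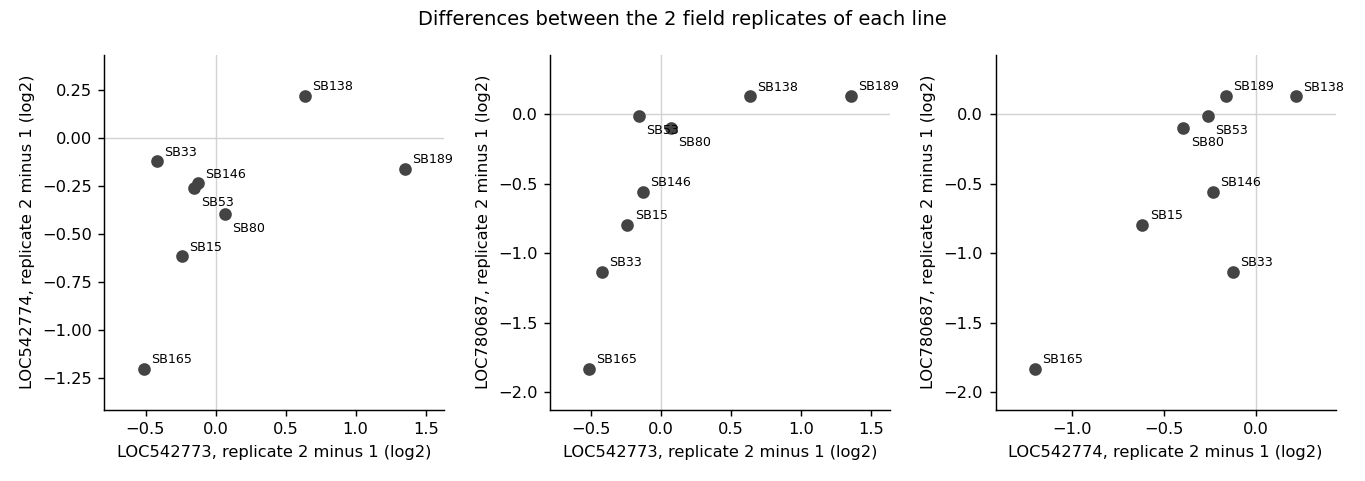
Difference between field replicates 2 and 1 (log2) in each of the 8 lines, plotted for the 3 pairs of loci on their brightest annotated probe sets, each point 1 line. SB165 lies at the lower left in each panel, and LOC542773 and LOC780687 rank the lines most alike (rank correlation 0.929).

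Other genes of carbohydrate metabolism were read from lists of symbols, completed after the annotation had been seen. Of 44 probe sets from 13 genes, 2 had a line effect (limma adjusted p under 0.05), which is 4.55% against 3.5% of all probe sets. Among those with a mean signal above 4 it was 2 of 20, against 7.18% of all such probe sets. The median range of line means was 0.36 for these 20 and 0.42 for all 22501 probe sets with a mean above 4. Both calls belonged to 6-FEH (LOC780575), an exohydrolase of the 6-linked chains. Among the 18 bright probe sets of the lists that were not called, line means ranged over at most 0.89.

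On its brighter probe set, Ta.30950.1.A1_x_at, 6-FEH read 9.96 and 10.06 in SB80, 9.8 and 9.85 in SB33, and 9.35 and 9.79 in SB189, and its lowest values were 8.37 and 8.27 in SB15 (limma adjusted p = 0.00273). The suffix of this probe set marks probes shared with other sequences. SB80, SB33 and SB189, the highest lines for LOC542773 and LOC542774, were thus also the highest on this probe set for fructan breakdown. SB138, which for LOC542774 stood above SB53, stood below it here, at 8.79 ± 0.085 (SD, n = 2) against 9.05 ± 0.038. The replicates of SB138 (8.73 and 8.85) overlapped those of SB146 (8.83 and 8.97). On this probe set the 6-FEH line means correlated at 0.795 with the fructosyltransferase profile, which is the mean of the scaled line means of the 3 loci. The second 6-FEH probe set with a line effect, Ta.9641.1.A1_a_at, ranged over 3.27, from 8.04 in SB80 to 4.77 in SB15, and correlated at 0.645 (limma adjusted p = 0.0198), a call that ended without SB80 (limma adjusted p = 0.0858), without SB80 and SB165 (0.147) and without replicate 1 (0.0591) or replicate 2 (0.0502) of SB15. On Ta.9641.1.A1_a_at SB138 averaged 5.85, above SB53 at 5.71 and below SB146 at 6.56, with replicates that overlapped those of both. The last of the 3 probe sets of 6-FEH, TaAffx.93410.1.S1_at, lay near the floor. The other exohydrolase, 1-FEHw2 (LOC543441), was bright at 12.42 but ranged over 0.37 only (limma adjusted p = 0.597), with its lowest mean in SB80, at 12.16 ± 0.1 (SD, n = 2).

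Starch synthesis and the supply of sugar phosphates showed smaller ranges. The subunits of ADP-glucose pyrophosphorylase, which commits carbon to starch, ranged over 0.38 (AGP-S, LOC543299, limma adjusted p = 0.608) and 0.35 (AGA.1, LOC543278, limma adjusted p = 0.744). FBP, a fructose-1,6-bisphosphatase, ranged over 0.63 on 1 probe set (limma adjusted p = 0.206) and 0.2 on the other, and phosphoglycerate kinase (Pgk-1, LOC543496) ranged over 0.15. In the Calvin cycle, PRK ranged over 0.11, and of 28 probe sets for rbcL, the large subunit of Rubisco, none was called. The invertase list had 1 probe set, of LOC543415, whose synonyms include IVR1 and atpA, and it stood at the floor of 2.25 in all 16 arrays. GBSS, the amylase BMY1 and PFK averaged 2.25, 2.35 and 2.48, levels so near the floor that differences between lines could not be measured. No annotated symbol matched sucrose-phosphate synthase, sugar transporters or MYB factors. Sucrose synthase, which splits sucrose, had readings from the array's control probe sets, where its 3 prime probe set ranged over 0.54, from 9.81 in SB189 to 10.34 in SB165, and correlated with the fructosyltransferase profile at -0.46, and its middle probe set ranged over 0.18 and correlated at -0.069.

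**Figure D4:**
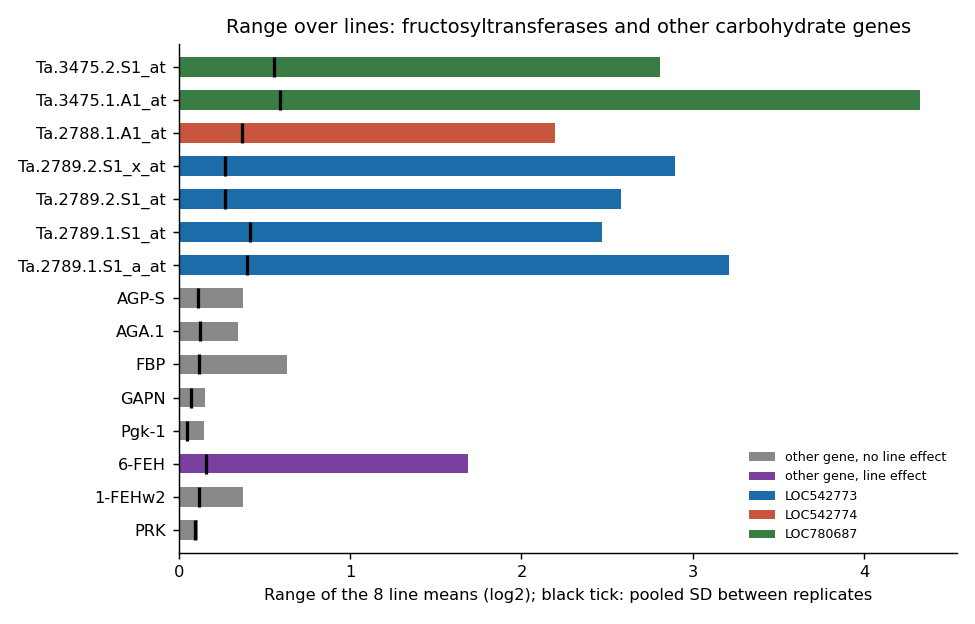
Range of the 8 line means (log2, x axis, bars) for the 7 fructosyltransferase probe sets and for other carbohydrate genes whose probe set of lowest p has a mean signal above 4, with a black tick at the pooled SD between replicates. The fructosyltransferase probe sets range over 2.19 to 4.33, 6-FEH over 1.69 on the probe set shown and 3.27 on another, and each of the other genes shown over 0.63 or less.

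Few transcripts followed the loci closely. Of 2596 other probe sets with a mean above 4 and line means that spanned 1 or more, 8 (0.308%) correlated above 0.9 with the fructosyltransferase profile over the 8 line means and 7 below -0.9, and the median r was -0.224. None of the 98 annotated probe sets among them reached 0.9. The annotated genes most like the profile were LOC543104 (r = 0.81), 6-FEH, LOC100037528 (r = 0.754), LOC542814 (r = 0.721) and LOC543100 (r = 0.692). The likeness of LOC542814 was that of 1 probe set, since its other one ranged over 0.26 and correlated at 0.0611. The closest unannotated probe sets were TaAffx.10980.1.S1_at (r = 0.976, a range of 1.2), Ta.1020.1.S1_a_at (r = 0.973, a range of 4.18) and Ta.1020.2.A1_x_at (r = 0.973, a range of 2.31), of which the last 2 share a cluster number. Running opposite were LOC543105 (r = -0.803), which was highest in SB165 at 9.96 and lowest in SB80 at 7.84, LOC543329 (r = -0.796) and LOC606369 (r = -0.792). For LOC606369 the sign depended on the probe set, as another of its 4 correlated at 0.566.

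Some technical measures moved with the loci, and their part in the levels was not tested. The poly-A spikes, RNAs added before labelling, ranged over 1.32 between lines, from 8.88 ± 0.037 (SD, n = 2) in SB80 to 10.2 ± 0.13 in SB165, and ran opposite to LOC542773 (r = -0.843 over 8 line means), LOC542774 (r = -0.819) and LOC780687 (r = -0.756). The median r with the spikes was 0.213 for the 2596 other probe sets of wide range, and 1.35% of these lay below the value of LOC542773. Without SB80 and SB165 the spikes ranged over 0.52, and the loci over 2.42, 2.02 and 4.28, against 2.47, 2.19 and 4.33 with all lines. SB189 and SB146, which were kept, lie at or near the extremes of each locus, so the locus ranges had to stay wide. The part of the spikes in them cannot be read from these ranges. Over the 6 lines without SB80 and SB165 the loci still ran opposite to the spikes, with r of -0.852, -0.7 and -0.64. With each array centred on its spikes, an alternative chosen after seeing the data, the ranges were 3.69, 3.48 and 5.36. Since the loci ran opposite to the spikes, centring widens their ranges by its nature and is no test of them. Hybridisation controls, added after labelling, followed the loci less over line means, with r of 0.11, 0.232 and 0.44. Over replicate differences the hybridisation controls gave r of 0.123, 0.489 and 0.419, and the spikes -0.46, -0.318 and -0.0337. The 3 prime to middle difference of sucrose synthase, a sign of RNA quality, gave r of -0.394, -0.417 and -0.426 over line means. Over replicate differences it gave -0.447, -0.323 and -0.262. The same difference for GAPDH gave r of -0.414, -0.53 and -0.581 over line means, with a range of 0.111 between lines. It read 0.002 in both replicates of SB80 and of SB146, and in 1 replicate of each other line. Its extremes were single arrays, 0.0901 in replicate 1 of SB15 and -0.133 in replicate 1 of SB189. It thus measures RNA quality poorly, and nothing is read from its r values. Its replicate differences correlated with those of LOC542773 at 0.786, of LOC542774 at 0.342 and of LOC780687 at 0.448. For actin the difference ranged over 0.48 and gave r of -0.183, -0.391 and -0.365 over line means. Over replicate differences it gave 0.206, -0.136 and -0.326. It too repeated a value, 0.16, in replicate 1 of SB53 and of SB138 and in replicate 2 of SB146, which limits it. The signal of 18S rRNA ranged over 4.21 and gave r of -0.0333, -0.00987 and -0.0231 over line means. Over replicate differences it gave -0.299, -0.224 and -0.57. The part of these measures in the within-line correlations was not tested.

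**Figure D5:**
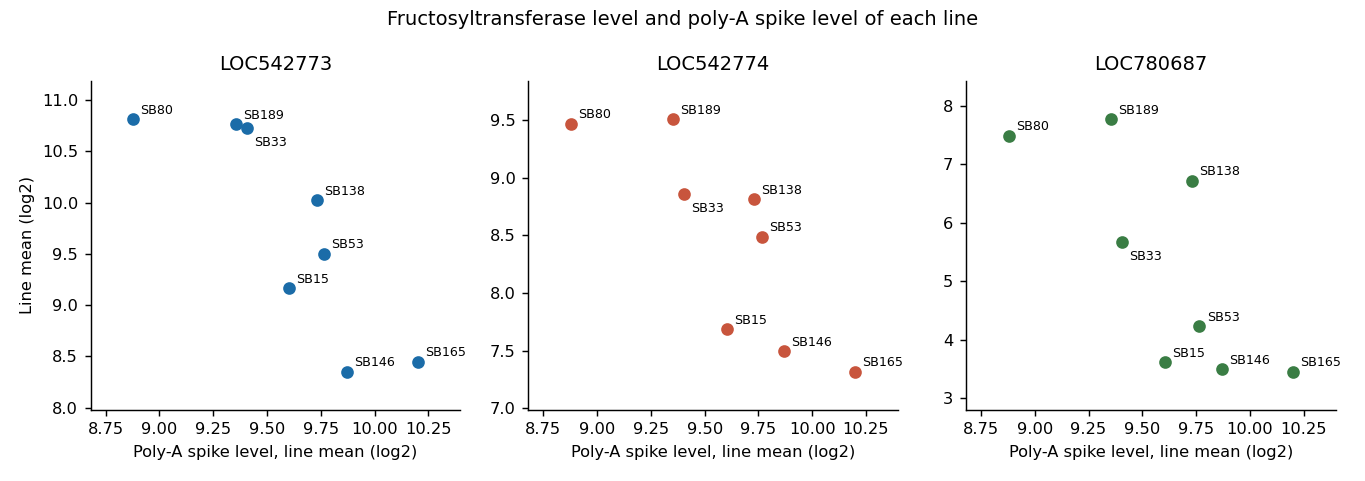
Line mean of each locus (log2, y axis) against the mean poly-A spike level of the same line (log2, x axis), with 1 point per line. The spikes fall between 8.88 in SB80 and 10.2 in SB165, and the locus levels run opposite with r of -0.843, -0.819 and -0.756.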

How the data were processed

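Flag leaf RNA of 8 lines with 2 field replicates each was hybridised to 16 Affymetrix wheat arrays. The deposited log2 values were made by the authors with RMA or GCRMA, both named in the submitters' processing notes with no version. Which of them produced the table is not given in the sources used here. No probe sequences or transcript sequences were used here. The lists, the loci and the tests were chosen with earlier results of these data known.

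Of 61290 probe sets, 175 controls were left out, leaving 61115. Array medians lay between 2.35 and 2.39. The annotation pairs 1273 of these probe sets with 1 gene each, and 59842 are unnamed. For line effects, limma 3.58.1 was run in R 4.3.3 (moderated F over 8 lines, 8 residual and 0.39 prior degrees of freedom, Benjamini-Hochberg over all probe sets, threshold 0.05). Field replicates were tested with line as a block. The first search patterns matched fructan hydrolysis genes and a profilin only, so symbols such as AGP-S, FBP and PRK were added afterwards, from the annotation.

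Named genes were, by rule, all probe sets of the loci, called genes and up to 3 per list of highest mean, and the 5 most and 3 least alike annotated genes and 3 alike unnamed probe sets. The limma fit for line effects was first tried on simulated data over 61115 probe sets with 1 line shifted. It found 49 of 100 changed probe sets at a log2 shift of 1 and 84 of 100 at 2, with 8 false calls. The field replicate fit was run on the same data, which held no replicate effect. It gave 0 false calls, and its power to find such an effect was not tried. Exact permutation tests used Python 3.11.15.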

Additional observations from a re-analysis of the deposited data

How the results depend on the processing

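The ranges of line means kept within 1 pooled replicate SD of their values after quantile normalization, after subtraction of array medians, and without SB80, SB165 or both. Centred on the poly-A spikes, an alternative added after seeing the data, they rose to 4.33, 3.69, 3.62 and 3.85 for the LOC542773 probe sets Ta.2789.1.S1_a_at, Ta.2789.1.S1_at, Ta.2789.2.S1_at and Ta.2789.2.S1_x_at, to 3.48 for LOC542774, and to 5.36 and 3.56 for Ta.3475.1.A1_at and Ta.3475.2.S1_at of LOC780687. This rise is built into the centring, since the loci ran opposite to the spikes, and is no test of the ranges. Leaving out 1 array gave 2.92 to 3.69, 2.4 to 3.09, 2.3 to 2.88, 2.6 to 3.22, 2.02 to 2.8, 4.26 to 5.24 and 2.72 to 2.89 in the same order of probe sets. The dimmer probe set gave 3.21 for LOC542773 and 2.81 for LOC780687.

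The count of line effects over all probe sets, 2137, was 3542 after subtraction of array medians, 3360 among bright probe sets, 1401 without SB80, 981 without SB80 and SB165, and 2447 to 3818 without 1 array. It moved by over 1.5 times without replicate 1 of SB53 (3325), SB80 (3426), SB138 (3433) or SB189 (3818). In the lists it was 2 in the main setting, 1 without SB80, 1 without both lines and 2 to 4 without 1 array, with 4 without replicate 1 of SB189 or replicate 2 of SB33, SB80 or SB138. Where the count in the lists was 4, each probe set added to the main 2 averaged between 2.25 and 2.45, within 1 of the floor. Differences between lines could not be measured so near the floor, so no line effect is read from these added calls. The replicate block gave 1986 over all probe sets and 2 in the lists. Differences between replicates correlated over 0.1 in 12 of 28 pairs of lines, short of every pair. The replicate numbers were therefore not taken to pair the samples in the main line-effect fit. Still, 7 of 8 lines correlated above 0 with the mean difference of the others, a hint from the data and not the design. The field replicate comparison and the within-line correlations do rest on the numbers, and other numbering would change their values. The field replicate count stayed at 0 in each setting run.

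For LOC542773 with LOC780687, the within-line correlation was 0.765 after quantile normalization (adjusted exact p = 0.0415) and 0.773 after median subtraction (adjusted exact p = 0.0357). It was 0.929 by rank and 0.867 with the unnamed probe set. It reversed to -0.0884 with the dimmer probe sets, of which that of LOC780687 lies near the floor. With the dimmer probe set of LOC542773 alone, and Ta.3475.1.A1_at kept, the correlation was 0.812. For LOC542774 with LOC780687 it was 0.802 (adjusted exact p = 0.0415) and 0.817 (adjusted exact p = 0.0347) after these normalizations, and 0.76 with the unnamed probe set, where only the adjustment changed (adjusted exact p = 0.0276). For LOC542773 with LOC542774 it was 0.829 with the unnamed probe set. Without 1 line the correlations ran from 0.69 to 0.82, from 0.372 to 0.914 and from 0.431 to 0.708 in this order of pairs, the second rising to 0.914 without SB33 (adjusted exact p = 0.0208). The cause of these changes was not tested. Nearness to the floor limits LOC780687, whose signal lay within 1 of it in 3 arrays on 1 probe set and in 13 on the other.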
